A study of Mus musculus with 28 samples.

Results

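The annexin genes *Anxa1*, *Anxa2*, *Anxa3*, *Anxa4*, *Anxa5*, *Anxa6*, *Anxa7*, *Anxa8* and *Anxa11* were followed in tibialis anterior (TA) muscle of mouse models of centronuclear myopathy. They are 9 of the 55359 genes present in both count tables, and they were taken as a gene family. The family was chosen with earlier results of these data known: *Anxa2* for its rise in diseased muscle, and *Anxa4* and *Anxa8* for a response to tamoxifen that differed by genotype. For these 3 genes, the comparisons that chose them, and those that reuse mice whose values entered that choice, are therefore described without a test.

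RNA-seq counts of TA muscle were available for 28 mice, with 4 mice in each of 7 groups, all on the C57BL/6N background and 8 weeks old. The first cohort, named after *Dnm2*, comprised WT mice on placebo, WT mice on a tamoxifen diet, *Dnm2* S619L/+ mice on placebo and *Dnm2* S619L/+ mice on tamoxifen. The second cohort, named after *Bin1*, comprised WT mice on placebo, *Bin1* mck-/- mice on placebo and *Bin1* mck-/- mice on tamoxifen, and had no WT treated group. *Dnm2* S619L/+ mice carry 1 mutant allele of dynamin 2, a GTPase that cuts membranes, in every cell. *Bin1* mck-/- mice lack *Bin1*, which encodes a membrane-curving protein of the T-tubule, in the cells where the muscle creatine kinase promoter is active. Below, WT, disease, WT treated and disease treated refer to these groups, and the placebo groups are called untreated.

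Annexins are cytosolic proteins that bind negatively charged phospholipids when calcium rises. In skeletal muscle, they are known for the repair of a torn sarcolemma, where calcium entering through the lesion brings several annexins to the wound together with dysferlin. Several annexins act with small S100 proteins, of which S100A10 forms a tetramer with annexin A2. Annexins are also made by macrophages and by connective tissue, bone and epithelial cells, so bulk muscle RNA holds annexin mRNA from several cell types.

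The counts on genes ranged from 15586333 to 109710886 per mouse in the *Dnm2* cohort and from 24671835 to 35136327 in the *Bin1* cohort. Levels are given as CPM, that is counts scaled to a common library size, and a log2 fold change of 1 is a doubling. *Bin1* itself stood at 539.9 ± 15.7 CPM (SD, n = 4) in WT mice of its cohort, at 56.2 ± 5.10 in disease and at 40.9 ± 6.16 in disease treated mice, as the labels state. The S619L change cannot be seen in counts per gene. The sum of 9 muscle fiber markers was between 89850 and 198900 CPM in every mouse, and it differed between groups, as given with the tamoxifen results. Libraries of the *Bin1* cohort were made from 350 ng of RNA fragmented for 8 min and those of the *Dnm2* cohort from 300 ng fragmented for 2 min, so that levels were compared only within a cohort. Some treated TA samples carried transcripts of bone and tendon, which are described with the tamoxifen results. In bulk muscle, fewer cells of a type and less RNA per cell cannot be told apart.

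The promoters of 4 members are shown: *Anxa2*, *Anxa1* and *Anxa4*, which were the annexins nearest to *Anxa2* over the mice, as described below, and *Anxa8*, which had the largest change. Each sequence runs from 250 bases before to 50 bases after a RefSeq start site in GRCm38.p6, read on the strand of the gene. Capitals mark a match to the AP-1 motif TGANTCA in *Anxa2* and to the RUNX motif TGTGGT in *Anxa8*, with both strands searched.
Anxa1, chr19:20390622-20390921, minus strand: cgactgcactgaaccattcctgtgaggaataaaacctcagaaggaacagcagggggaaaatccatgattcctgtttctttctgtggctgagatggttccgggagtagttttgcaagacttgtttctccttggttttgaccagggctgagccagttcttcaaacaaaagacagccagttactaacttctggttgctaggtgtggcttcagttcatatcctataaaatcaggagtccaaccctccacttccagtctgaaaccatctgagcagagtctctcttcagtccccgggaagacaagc
Anxa2, chr9:69453433-69453732, plus strand: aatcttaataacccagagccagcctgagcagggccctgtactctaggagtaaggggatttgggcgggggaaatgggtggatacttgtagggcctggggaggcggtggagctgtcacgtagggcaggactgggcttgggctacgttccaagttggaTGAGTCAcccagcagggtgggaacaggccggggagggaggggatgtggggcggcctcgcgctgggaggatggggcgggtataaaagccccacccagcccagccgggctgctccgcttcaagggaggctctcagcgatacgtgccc
Anxa4, chr6:86793535-86793834, minus strand: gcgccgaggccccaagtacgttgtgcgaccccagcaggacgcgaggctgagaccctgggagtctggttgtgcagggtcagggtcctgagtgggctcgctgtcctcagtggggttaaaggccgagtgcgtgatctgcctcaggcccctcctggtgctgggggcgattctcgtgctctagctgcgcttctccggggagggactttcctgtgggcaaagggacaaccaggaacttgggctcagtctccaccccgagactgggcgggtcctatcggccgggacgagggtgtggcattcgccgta
Anxa8, chr14:34085729-34086028, plus strand: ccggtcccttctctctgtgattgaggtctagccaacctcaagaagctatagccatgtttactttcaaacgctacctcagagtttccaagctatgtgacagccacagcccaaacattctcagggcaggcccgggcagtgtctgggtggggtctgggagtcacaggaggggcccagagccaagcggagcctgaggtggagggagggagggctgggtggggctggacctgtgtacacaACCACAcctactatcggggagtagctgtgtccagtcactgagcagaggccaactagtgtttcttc

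RefSeq held 9 promoters for 7 of the 9 members, and *Anxa3* and *Anxa6* had no entry. The AP-1 motif is bound by the stress-induced FOS and JUN proteins. It was found in the *Anxa2* promoter alone among the 9, starting at -95 from the start site, and in 7.81% of all 32851 promoters. The RUNX motif is bound by the RUNX factors of blood, bone and muscle cells. It was found in the *Anxa8* promoter alone, starting at -15, and in 16.8% of all promoters. The estrogen response element, GGTCA and TGACC spaced by 3 bases, had no match in the 9 promoters and was found in 0.07% of all promoters. These matches describe letters in short windows and not binding. GC content also differed between the promoters: it was 47.3% in *Anxa1* with 3 CpG, 63.7% in *Anxa2* with 13 CpG, 65.3% in *Anxa4* with 20 CpG and 57.3% in *Anxa8* with 5 CpG, against a median of 52.7% and 7 CpG over all promoters. RefSeq held a second *Anxa4* promoter, not shown, with a GC content of 43.0% and 3 CpG.

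In untreated WT muscle, the annexin pool was dominated by *Anxa6* and *Anxa11*. *Anxa6* encodes annexin A6, which has more repeats than the other annexins and forms part of the repair cap, and *Anxa11* encodes a long-tailed annexin that tethers RNA granules to lysosomes. Levels were compared between genes as RPKM, that is CPM per kilobase of exon, with exon lengths from GENCODE. In WT mice of the *Dnm2* cohort, *Anxa6* stood at 85.0 ± 4.65 RPKM and *Anxa11* at 51.2 ± 2.22 RPKM. *Anxa5* and *Anxa2* followed at 25.2 ± 4.99 and 13.3 ± 5.74 RPKM. *Anxa7* (8.12 ± 1.54), *Anxa3* (7.23 ± 1.90), *Anxa1* (5.84 ± 0.859), *Anxa4* (2.58 ± 0.325) and *Anxa8* (0.224 ± 0.0871) completed the order. Neighbours in this order overlapped between mice from *Anxa5* down to *Anxa1*, whereas *Anxa6*, *Anxa11*, *Anxa4* and *Anxa8* were each separated from their neighbours. The WT mice of the *Bin1* cohort had the same order, with *Anxa6* at 93.5 ± 2.25 RPKM and *Anxa8* at 0.0219 ± 0.0237 RPKM.

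The summed level of the 9 annexins was 198.6 ± 8.03 RPKM in WT and 306.7 ± 46.3 RPKM in disease mice of the *Dnm2* cohort, and 192.9 ± 6.27 and 301.7 ± 44.6 RPKM in WT and disease mice of the *Bin1* cohort. It was 262.4 ± 30.1 RPKM in WT treated, 273.8 ± 13.7 in *Dnm2* disease treated and 230.8 ± 16.8 in *Bin1* disease treated mice. The composition also shifted. *Anxa6* made up 42.9% of the pool in WT and 34.4% in disease in the *Dnm2* cohort, and 48.5% and 39.6% in the *Bin1* cohort. *Anxa2*, which bundles actin at membranes and takes part in sarcolemma repair, held 6.60% and 14.3% in the first cohort and 6.24% and 13.0% in the second. In *Dnm2* disease muscle, *Anxa2* at 44.3 ± 12.3 RPKM overlapped *Anxa11* at 62.8 ± 7.56 RPKM, and *Anxa8* at 10.3 ± 5.56 RPKM was no longer the lowest member. In WT treated mice, *Anxa5* held 22.7% of the pool, against 12.6% in untreated WT, and its range over mice overlapped that of *Anxa6*. These sums and shares contain *Anxa2*, *Anxa4* and *Anxa8* and are given as a description.

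**Figure D1:**
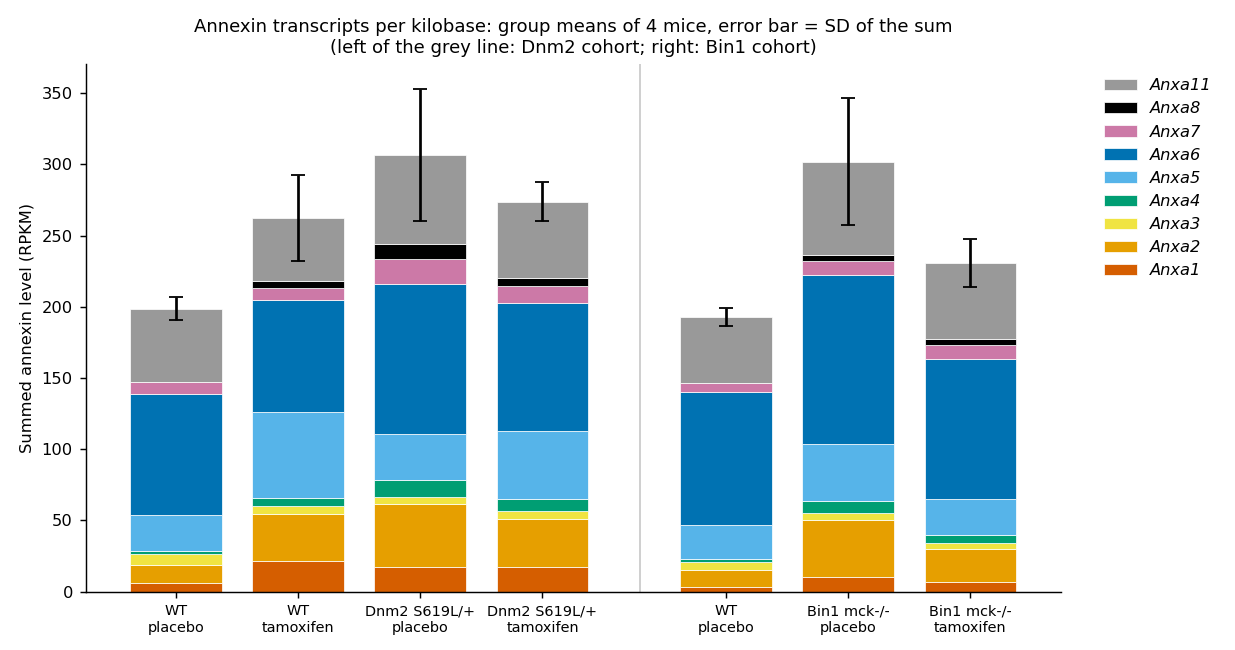
Level of each annexin per kilobase of exon (RPKM), stacked as group means for the 7 groups of 4 mice. The stacks of both disease groups and of the treated groups stand above the untreated WT stacks of 198.6 and 192.9 RPKM, and *Anxa6* is the thickest layer in every group.

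The first comparison asked which annexins differ between disease and WT muscle in the *Dnm2* cohort. *Anxa2* was at 49.0, 33.4, 35.5 and 79.8 CPM in the 4 WT mice and at 186.1, 171.1, 99.9 and 204.3 CPM in the 4 disease mice. All disease mice were above all WT mice, with 1 WT mouse at 79.8 CPM close to the lowest disease mouse. The log2 fold change of *Anxa2* was 1.74 (SE 0.30), and 2.07 without that WT mouse.

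*Anxa1* encodes annexin A1, which promotes the resolution of inflammation and also binds wounded membranes. It was at 17.3, 15.9, 14.5 and 20.3 CPM in WT and at 58.0, 64.7, 28.7 and 48.6 CPM in disease. The groups did not overlap, and *Anxa1* rose by a log2 fold change of 1.55 (SE 0.27, adjusted p = 0.00124 in edgeR's quasi-likelihood test). *Anxa4*, an annexin of secretory epithelia that aggregates membranes, was at 10.9, 12.3, 10.8 and 14.0 CPM in WT and at 57.6, 63.0, 30.7 and 69.5 CPM in disease. Its log2 fold change was 2.2 (SE 0.20), and the groups did not overlap.

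*Anxa8* encodes an annexin known from stratified epithelia and osteoclasts. It was close to its detection limit in WT, at 0.183, 0.481, 0.553 and 0.469 CPM, and at 25.1, 30.9, 8.33 and 13.0 CPM in disease. Over the 4 mice of a group these levels rest on 63 reads in WT and 2269 reads in disease, a ratio of 61.2 (95% counting interval 47.7 to 80.0, exact binomial). This interval and the counting intervals below cover counting error only and leave out the spread between mice. The fitted log2 fold change was 5.49 (SE 0.75), and the disease mice themselves differed by several-fold.

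*Anxa7*, which encodes synexin, an annexin involved in calcium handling and exocytosis, ranged from 39.0 to 56.8 CPM in WT and from 73.7 to 139.8 CPM in disease. It rose by 1.14 (SE 0.16, adjusted p = 2.51e-04), and the call held in all 16 fits that left out 1 mouse. *Anxa6* ranged from 228.7 to 256.9 CPM in WT and from 263.7 to 355.9 CPM in disease, a rise of 0.31 (SE 0.10, adjusted p = 0.0415). *Anxa3*, an annexin of neutrophils and endothelium, ranged from 20.8 to 36.4 CPM in WT and from 16.9 to 22.6 CPM in disease. It was the only member tested that fell, with a log2 fold change of -0.51 (SE 0.16, adjusted p = 0.0369). The *Anxa6* call held in 8 of 16 fits without 1 mouse and the *Anxa3* call in 11 of 16.

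*Anxa5*, the phosphatidylserine-binding annexin used to label dying cells, forms lattices at membrane wounds. It was at 52.9, 36.4, 37.8 and 51.9 CPM in WT and at 62.6, 54.5, 57.1 and 55.4 CPM in disease. The disease mice all lay above the WT mice, but the difference of 0.36 (SE 0.22) did not pass the test (adjusted p = 0.259). *Anxa11* ranged from 200.2 to 220.8 CPM in WT and from 216.2 to 289.8 CPM in disease, with a log2 fold change of 0.29 (SE 0.12, adjusted p = 0.0785). In all, 3 of the 6 members tested rose and 1 fell, where 12.1% of all 15439 genes tested rose and 9.81% fell. The median log2 fold change over all genes was 0.02.

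**Figure D2:**
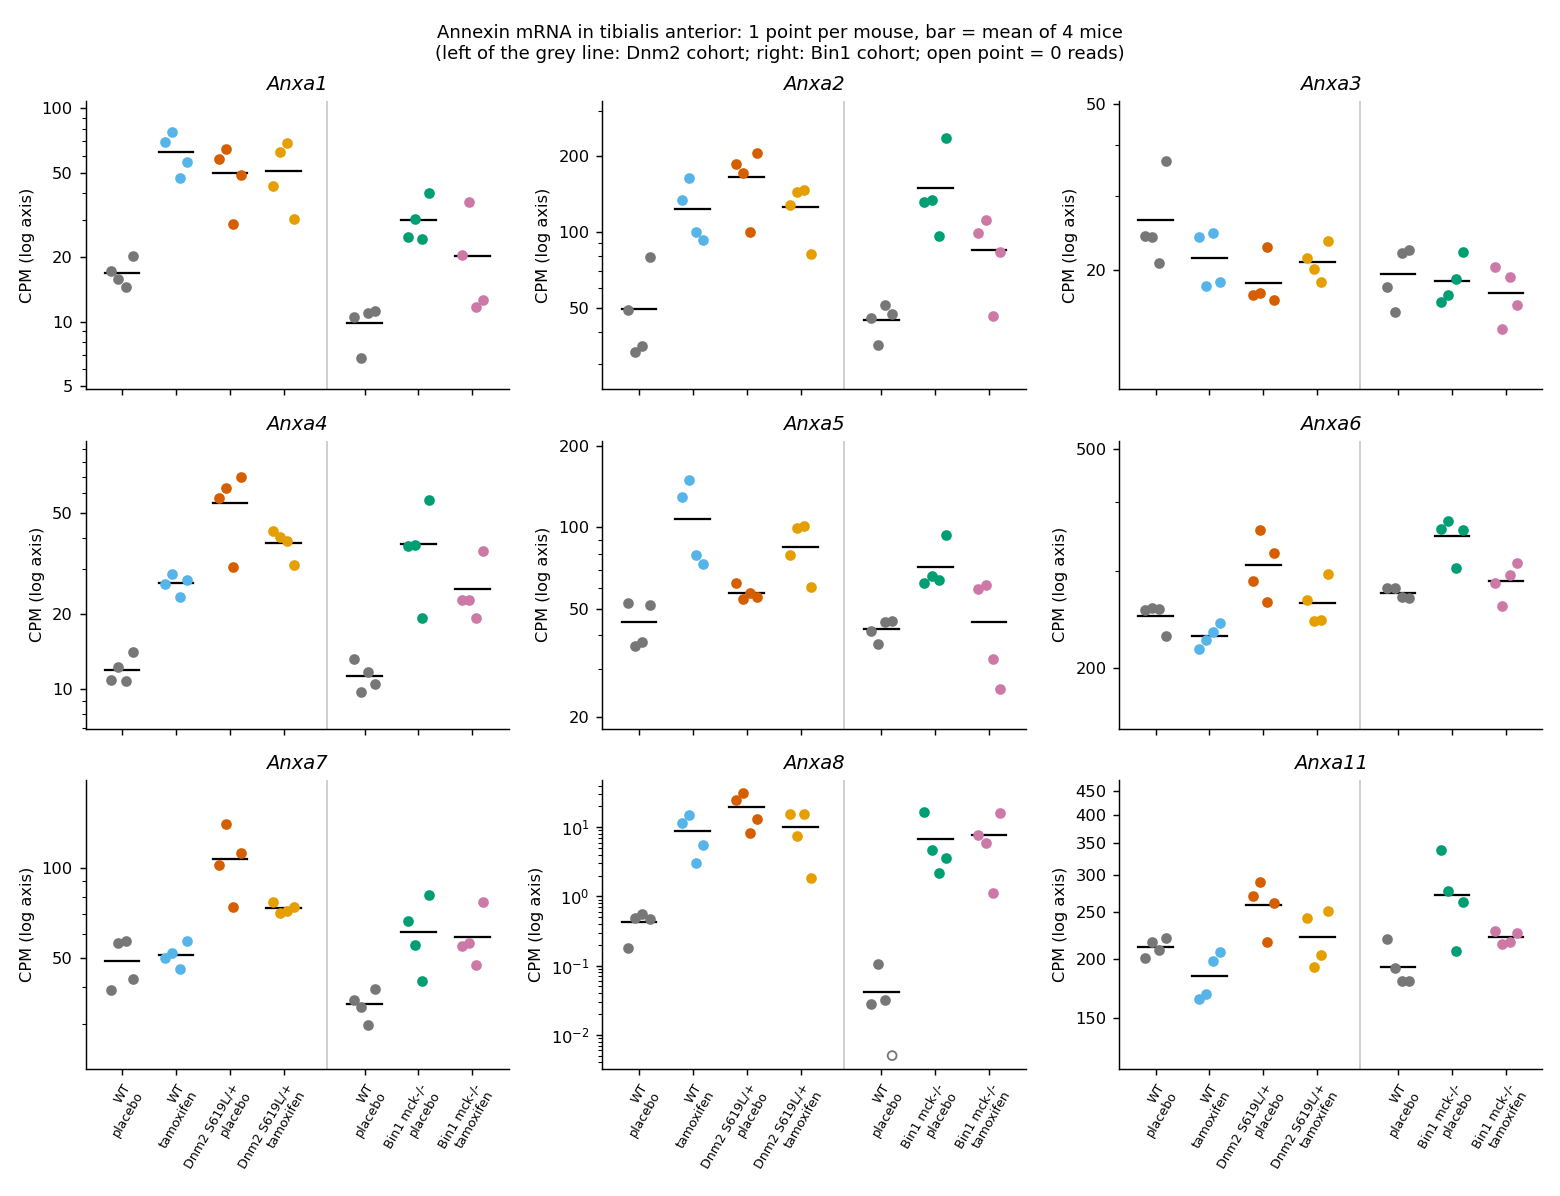
CPM of each of the 9 annexins in each of the 28 mice, 1 panel per gene, with a logarithmic y axis and points grouped by the 7 groups. For *Anxa3* and *Anxa11* the disease mice overlap the untreated WT mice in both cohorts. For the other members the disease mice of both cohorts lie above all untreated WT mice of their cohort. This describes the points and is no test: *Anxa5* did not pass the test in either cohort, nor did *Anxa6* in *Bin1* disease. The share of all genes that separate in this way is not reported here. The spread between mice is widest for *Anxa8*.

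The same question in the *Bin1* cohort concerned 4 WT and 4 disease mice. *Anxa2* was at 45.5, 35.7, 51.5 and 47.2 CPM in WT and at 131.2, 133.6, 96.0 and 235.2 CPM in disease. The groups were separate, and the highest value belonged to disease mouse 4. The log2 fold change of *Anxa2* was 1.73 (SE 0.30), and 1.41 without that mouse. *Anxa1* was at 10.5, 6.75, 11.04 and 11.3 CPM in WT and at 25.1, 30.2, 24.4 and 40.3 CPM in disease. It rose by 1.59 (SE 0.34, adjusted p = 0.0366), and the groups did not overlap.

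*Anxa4* was at 13.2, 9.74, 11.7 and 10.5 CPM in WT and at 37.3, 37.6, 19.2 and 56.6 CPM in disease, without overlap and with a log2 fold change of 1.73 (SE 0.28). *Anxa8* had 1, 3, 1 and 0 reads in the 4 WT mice, that is 0.028, 0.104, 0.032 and 0 CPM. In disease mice *Anxa8* was at 16.6, 4.63, 2.15 and 3.60 CPM. It was therefore almost absent from WT muscle and present in every disease mouse, with 5 reads in WT and 907 in disease in sum, a ratio of 175 (95% counting interval 74.5 to 539). Disease mouse 1 held 560 of the 907 reads. The log2 fold change fitted by edgeR was 6.04 (SE 1.05), and 5.07 without that mouse. With 5 reads in WT this value depends on the method, and DESeq2 gave 7.40. *Anxa4* and *Anxa8* were not chosen on this comparison, but the untreated disease mice in it also enter the tamoxifen comparison that chose them, so these values are a description.

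*Anxa7* ranged from 29.9 to 39.5 CPM in WT and from 41.7 to 81.2 CPM in disease and rose by 0.80 (SE 0.19, adjusted p = 0.0391). *Anxa5* was at 41.4, 37.0, 44.8 and 45.4 CPM in WT and at 62.7, 66.1, 64.2 and 93.9 CPM in disease. Its groups did not overlap, but the difference of 0.77 (SE 0.25) missed the threshold (adjusted p = 0.116). *Anxa6*, at 267.6 to 280.0 CPM in WT and 304.3 to 369.7 CPM in disease, likewise missed it (0.34, SE 0.10, adjusted p = 0.083). *Anxa11*, at 179.2 to 220.3 CPM in WT and 207.5 to 338.2 CPM in disease, had a log2 fold change of 0.50 (SE 0.13, adjusted p = 0.0576). *Anxa3* ranged from 15.8 to 22.3 CPM in WT and from 16.7 to 22.0 CPM in disease (-0.06, SE 0.14, adjusted p = 0.863).

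Thus *Anxa1* and *Anxa7*, that is 2 of the 6 members tested, rose in *Bin1* disease muscle and 0 fell, where 1.99% of all 14841 genes tested rose and 0.627% fell. These calls were close to the threshold. The *Anxa1* and *Anxa7* calls each held in the same 4 of 12 fits without 1 mouse, and no member tested was called in the other 8, which were those without any 1 WT mouse, disease mouse 1, 2 or 4 or disease treated mouse 1. DESeq2 called 5 of the 6 members in this comparison and 1191 genes in all, where edgeR called 388 genes.

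The disease effects of both cohorts were set against each other in a joint fit of all 28 mice. Of the 6 members tested, 0 differed between *Dnm2* and *Bin1* disease (0.312% of all genes did). At an unadjusted p under 0.05 the count was also 0 (13.5% of all genes), as it was in DESeq2. For *Anxa1* the difference was -0.05 (SE 0.42, adjusted p = 0.974), and for *Anxa7* it was 0.32 (SE 0.26, adjusted p = 0.622). The largest in size among the 6 was that of *Anxa3*, at -0.45 (SE 0.22, adjusted p = 0.38). These values do not show that the effects were equal, since the standard errors reach 0.42.

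Markers of other cell types moved with disease. The summed level of 8 macrophage markers was 74.2 to 118.8 CPM in WT and 101.4 to 360.8 CPM in disease of the *Dnm2* cohort, with 3 of 8 markers higher. In the *Bin1* cohort it was 53.3 to 81.2 CPM in WT and 155.8 to 312.2 CPM in disease, with 4 of 8 higher. Markers of satellite cells and new fibers summed to 33.3 to 53.9 and 83.3 to 159.6 CPM in WT and disease of the *Dnm2* cohort, and to 45.2 to 67.9 and 69.3 to 130.6 CPM in the *Bin1* cohort. In each cohort *Myog* and *Ncam1* rose and *Pax7* fell among these 7 markers, with a median log2 fold change of 0.54 and -0.05. Endothelial markers summed to 364.7 to 740.0 CPM in WT and 169.0 to 500.7 CPM in disease of the *Dnm2* cohort, where *Anxa3* fell, and 3 of 6 were lower. In the *Bin1* cohort they summed to 487.7 to 595.8 and 389.0 to 533.0 CPM, with 0 of 6 called. Tendon markers summed to 47.4 to 242 CPM in WT and 255.7 to 485.6 CPM in *Dnm2* disease, with 3 of 5 higher, while 0 of 5 were called in *Bin1* disease. Markers of fibro-adipogenic progenitors summed to 493.9 to 555.3 and 617.6 to 961.8 CPM in WT and disease of the *Dnm2* cohort, with 1 of 6 higher. In the *Bin1* cohort they summed to 318.4 to 361.8 and 530.4 to 769.1 CPM, with 0 of 6 called. Of 5 adipocyte markers tested 3 were higher in *Bin1* disease, with sums of 244.9 to 272.9 and 234.5 to 398.9 CPM, and 0 of 6 were called in *Dnm2* disease. The sum of 6 keratinocyte markers was 5.55 to 10.7 and 20.7 to 37.0 CPM in the *Dnm2* cohort, with 2 of 3 markers tested higher. In the *Bin1* cohort it was 6.49 to 7.83 and 9.84 to 24.4 CPM, with 1 of 2 tested higher. *Krt5*, 1 of the 6 markers, had 0 reads in the disease mice of both cohorts. In the *Bin1* cohort, disease mouse 4 had the highest sums of macrophage markers (312.2 CPM) and tendon markers (1046 CPM, against 102.7 to 257.2 CPM in the other disease mice), and also the highest *Anxa1*, *Anxa2*, *Anxa4*, *Anxa5* and *Anxa7* of its group. Without this mouse *Anxa1* (log2 fold change 1.41, edgeR adjusted p = 0.116) and *Anxa7* (0.63, adjusted p = 0.134) did not pass the test, and the value of *Anxa4* was 1.46. The part of these cell types in the annexin results was not tested.

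**Figure D3:**
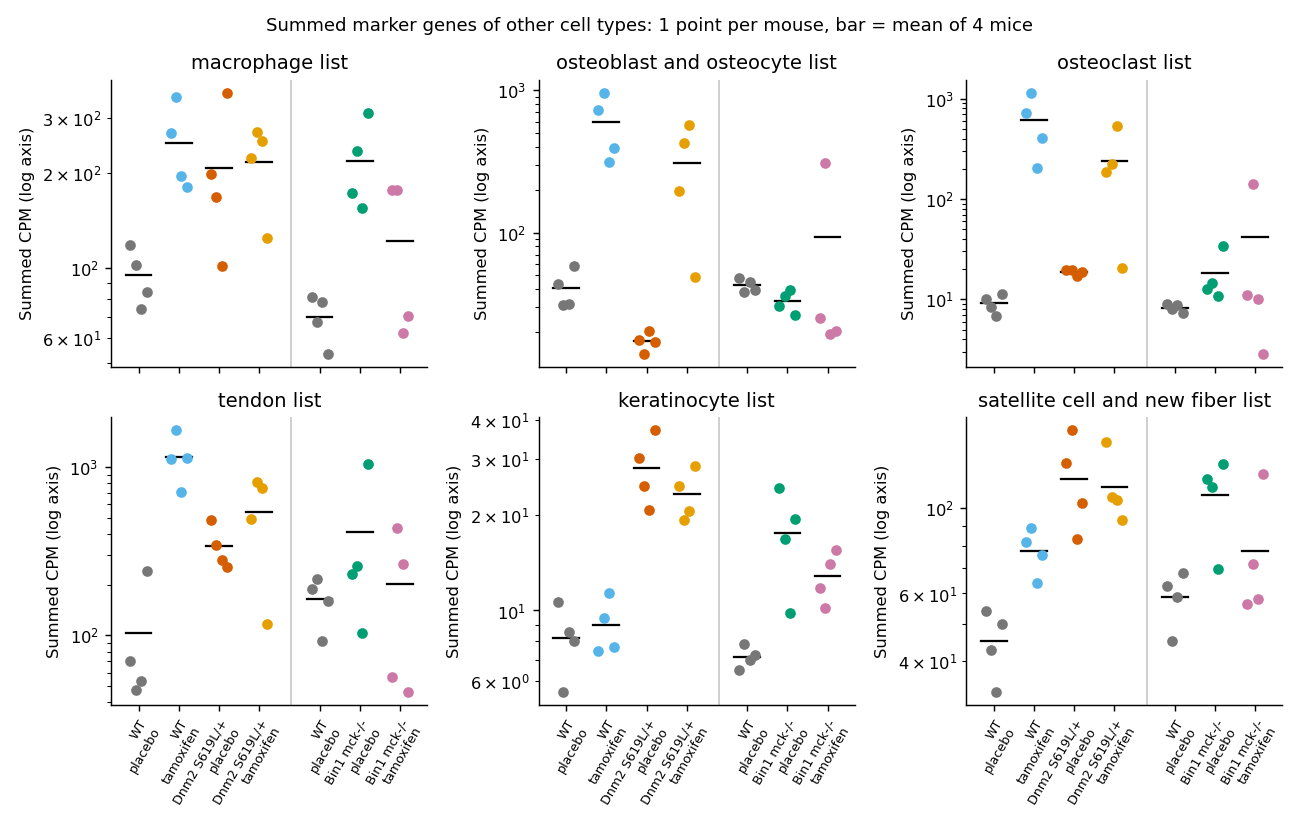
Summed CPM of the markers of 6 cell types other than mature muscle fibers in each mouse, 1 panel per cell type, with a logarithmic y axis. Macrophage markers lie higher in both disease groups than in WT mice on average, and the osteoblast and osteoclast sums reach 960.7 and 1143 CPM in WT treated mice.

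The second question was how tamoxifen, a ligand of estrogen receptors, changes annexin levels in healthy muscle. *Anxa1* was at 69.5, 77.5, 47.0 and 56.1 CPM in the 4 WT treated mice, against 14.5 to 20.3 CPM in untreated WT. It rose by 1.87 (SE 0.27, adjusted p = 3.74e-04), and every treated mouse was above every untreated one. *Anxa5* was at 129.3, 149.5, 78.9 and 73.1 CPM, against 36.4 to 52.9 CPM, a rise of 1.26 (SE 0.22, adjusted p = 0.00106). *Anxa2* was at 133.7, 163.5, 100.2 and 92.6 CPM, against 33.4 to 79.8 CPM, without overlap (1.30, SE 0.30). The untreated WT mice are the same as in the disease comparison for which *Anxa2* was chosen, so its value is a description.

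The calls of *Anxa1* and *Anxa5* held in all 16 fits without 1 mouse, with adjusted p of at most 0.00238 and 0.00545. *Anxa4* was at 26.2, 28.7, 23.3 and 27.1 CPM in WT treated mice (log2 fold change 1.13, SE 0.19), in a narrow range above all untreated WT mice and, for all 4, below the disease mice. *Anxa8* was at 11.6, 15.0, 3.06 and 5.45 CPM (4.37, SE 0.73), with 1301 reads in treated and 63 in untreated mice, a ratio of 29.7 (95% counting interval 23.0 to 38.8). The interval leaves out the spread between these mice. The *Anxa4* and *Anxa8* values entered the choice of these genes, so they are a description. *Anxa3*, *Anxa6*, *Anxa7* and *Anxa11* did not pass the test, with log2 fold changes of -0.31, -0.12, 0.08 and -0.20 and adjusted p from 0.168 to 0.752. In all, 2 of 6 members tested rose and 0 fell, where 15.8% of all genes rose and 11.9% fell.

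Bone, cartilage and tendon transcripts moved with tamoxifen in WT. The sum of 8 osteoblast and osteocyte markers was 30.8 to 58.3 CPM in untreated and 314.4 to 960.7 CPM in treated WT mice, and 6 of the 7 markers tested rose. That of 6 osteoclast markers was 6.88 to 11.4 and 205.7 to 1143 CPM, with 5 of 6 higher. Tendon markers summed to 47.4 to 242 and 708.8 to 1649 CPM, with 5 of 5 higher, and cartilage markers to 5.06 to 14.7 and 50.3 to 107.7 CPM, with 4 of 6 higher. Macrophage markers summed to 181.1 to 349.7 CPM in treated WT, with 6 of 8 higher, and markers of fibro-adipogenic progenitors to 493.9 to 555.3 and 1230 to 1748 CPM, with 3 of 6 higher. Muscle fiber markers summed to 131500 to 163000 CPM in untreated and 105200 to 118300 CPM in treated WT mice, without overlap, and 1 of 9 was called lower. WT treated mouse 2 had the highest *Anxa1*, *Anxa2*, *Anxa4*, *Anxa5* and *Anxa8* of its group together with the highest osteoblast, osteoclast, tendon and macrophage sums. *Anxa8* in untreated *Dnm2* disease mice was at 8.33 to 30.9 CPM while their osteoblast and osteocyte sum was 14.0 to 20.2 CPM and their osteoclast sum 17.0 to 19.6 CPM. The part of these cell types in the response of the annexins to tamoxifen was not tested.

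In *Dnm2* disease mice, no member tested was called higher with tamoxifen. *Anxa1* was at 43.2, 62.5, 68.6 and 30.2 CPM in disease treated mice, against 28.7 to 64.7 CPM in disease (0.03, SE 0.26, adjusted p = 0.961). *Anxa2* was at 127.8, 144.0, 146.8 and 81.8 CPM, within and below the range of disease (-0.40, SE 0.29). *Anxa4* was at 42.5, 40.4, 38.9 and 31.1 CPM, against 30.7 to 69.5 CPM in disease, with a log2 fold change of -0.53 (SE 0.19). *Anxa8* was at 15.4, 7.57, 15.3 and 1.85 CPM, with a log2 fold change of -0.94 (SE 0.58). For *Anxa4* and *Anxa8*, 3 of the 4 disease mice were above every treated mouse in *Anxa4*, and the groups overlapped widely in *Anxa8*.

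*Anxa7* was the member that fell with tamoxifen in *Dnm2* disease, from 73.7 to 139.8 CPM in disease to 70.4 to 76.7 CPM in disease treated mice (-0.55, SE 0.16, adjusted p = 0.0472). This call held in 4 of 16 fits without 1 mouse, with an adjusted p of up to 0.159. *Anxa5* was at 79.2, 99.5, 101.1 and 60.3 CPM in disease treated mice, with 3 of 4 above all disease mice (0.57, SE 0.22, adjusted p = 0.124). *Anxa3*, *Anxa6* and *Anxa11* had log2 fold changes of 0.17, -0.23 and -0.22 and did not pass the test. Thus 0 of 6 members tested rose and 1 fell in edgeR, where 5.22% of all genes rose and 3.05% fell. At an unadjusted p under 0.05, which 25.4% of all genes reached, *Anxa5* was higher and *Anxa6* and *Anxa7* were lower. DESeq2 called 1 member and 1882 genes in all.

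Among the disease treated mice of this cohort, mouse 4 had the lowest *Anxa1*, *Anxa2*, *Anxa4*, *Anxa5* and *Anxa8*. It also had the lowest osteoblast and osteocyte sum, 48.8 CPM against 195.1 to 566.9 CPM, and the lowest osteoclast sum, 20.5 CPM against 187 to 538.3 CPM. Its tendon (116.1 CPM), cartilage (8.33 CPM), macrophage (124.9 CPM) and fibro-adipogenic progenitor (523.8 CPM) sums were the lowest too. Its muscle fiber sum, 145600 CPM, was the highest. Without this mouse, *Anxa5* passed the test with a log2 fold change of 0.70 (adjusted p = 0.0402). The part of these cell types in this difference was not tested.

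The response to tamoxifen was then compared between *Dnm2* disease and WT mice as an interaction within the cohort. *Anxa4* had an interaction of -1.66 (SE 0.27) and *Anxa8* of -5.31 (SE 0.93) on the log2 scale, and these values chose the genes. *Anxa2* had an interaction of -1.71 (SE 0.42), in which the disease comparison that chose it is contained. For *Anxa1* the interaction was -1.84 (SE 0.37), which missed the threshold (adjusted p = 0.0598). The interaction of *Anxa5* was -0.70 (SE 0.31, adjusted p = 0.347) and that of *Anxa7* -0.62 (SE 0.23, adjusted p = 0.27). Of 6 members tested, 0 passed, where 0.259% of all genes did. At an unadjusted p under 0.05 3 of the 6 did, namely *Anxa1*, *Anxa5* and *Anxa7*, as did 13.5% of all genes. DESeq2 called 1 of the 6 and 327 genes in all.

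On tamoxifen, *Anxa2* overlapped between *Dnm2* and WT mice, at 81.8 to 146.8 CPM and 92.6 to 163.5 CPM (0.03, SE 0.29, adjusted p = 0.972). *Anxa1* and *Anxa8* also overlapped between the treated groups. *Anxa4* was at 31.1 to 42.5 CPM in treated *Dnm2* mice and 23.3 to 28.7 CPM in treated WT mice (log2 fold change 0.54). *Anxa6* was at 243.6 to 295.7 and 217.0 to 241.8 CPM (0.20), and *Anxa7* at 70.4 to 76.7 and 45.8 to 57.1 CPM (0.51). Of 7 members tested, 0 passed the threshold in edgeR (2.7% of all genes did), and 2 had an unadjusted p under 0.05 (*Anxa7* and *Anxa11*), as did 17.9% of all genes. DESeq2 called 1 of the 7 and 937 genes in all. *Anxa7* came nearest (adjusted p = 0.106 in edgeR). Set against untreated WT, disease treated *Dnm2* mice had higher *Anxa1* (1.58, SE 0.27, adjusted p = 8.98e-04), *Anxa5* (0.92, SE 0.22, adjusted p = 0.00677) and *Anxa7* (0.59, SE 0.16, adjusted p = 0.013). These are 3 of 6 members tested, where 15.8% of all genes were higher. Of these 3, *Anxa5* was not called in untreated *Dnm2* disease (0.36, edgeR adjusted p = 0.259). In the same comparison with untreated WT, 5 of 9 muscle fiber markers were lower.

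**Figure D4:**
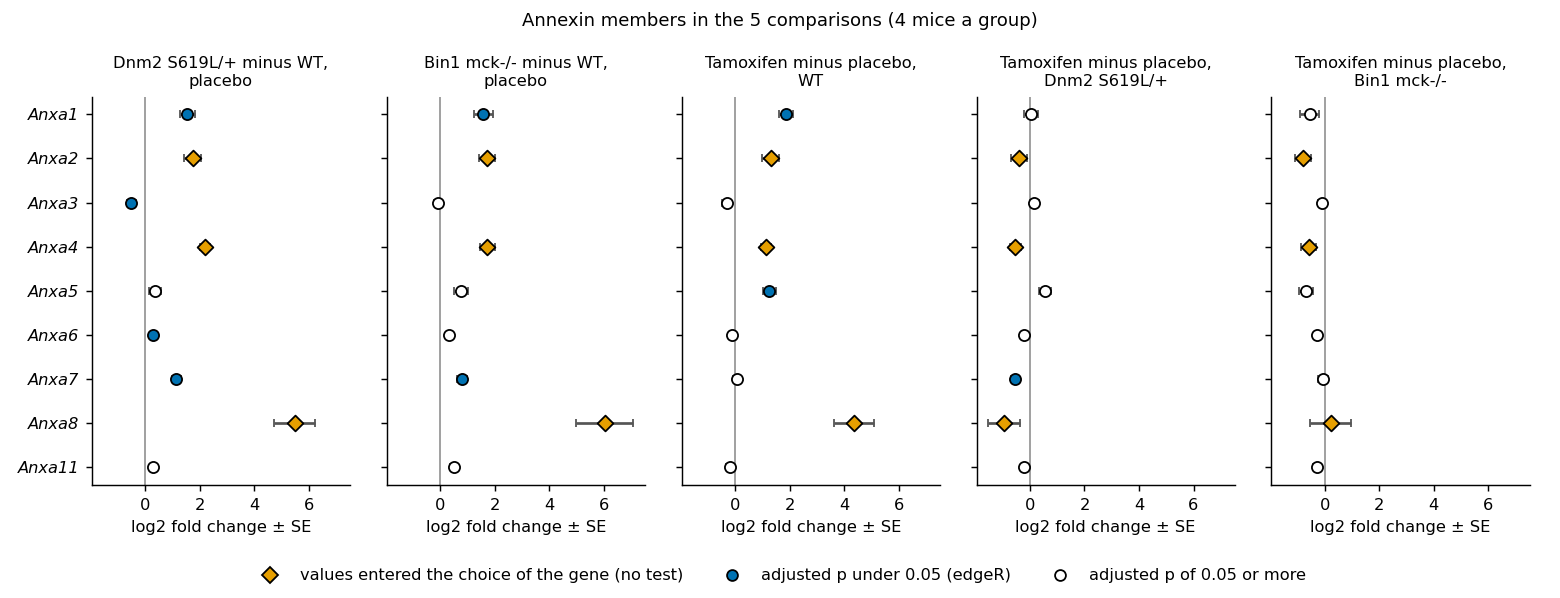
Log2 fold change of each annexin with its standard error in the disease and tamoxifen comparisons. *Anxa8* has the largest value in both disease comparisons, 5.49 and 6.04, and *Anxa1* lies at 1.87 with tamoxifen in WT and at 0.03 with tamoxifen in *Dnm2* disease.

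In *Bin1* disease mice, several annexins had lower values with tamoxifen, and none of the 6 members tested passed the test. *Anxa2* was at 98.5, 110.8, 46.6 and 83.5 CPM in disease treated mice, against 96.0 to 235.2 CPM in disease (-0.81, SE 0.29). *Anxa2* was chosen as high in these disease mice, so its value is a description. *Anxa5* was at 59.2, 61.5, 32.8 and 25.3 CPM, below all disease mice at 62.7 to 93.9 CPM (-0.68, SE 0.25, adjusted p = 0.15). *Anxa1* was at 20.6, 36.3, 11.7 and 12.7 CPM, against 24.4 to 40.3 CPM (-0.56, SE 0.33, adjusted p = 0.365). *Anxa4* was at 22.6, 22.6, 19.2 and 35.5 CPM, against 19.2 to 56.6 CPM, with a log2 fold change of -0.59 (SE 0.27).

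*Anxa8* was at 7.84, 5.95, 1.13 and 16.3 CPM in *Bin1* disease treated mice and did not separate them from disease mice (0.21, SE 0.75, and 1.16 without disease mouse 1). It remained far above WT in every mouse, with 852 reads against 5, a ratio of 201 (95% counting interval 86.0 to 622). *Anxa7* ranged from 47.2 to 76.9 CPM, *Anxa6* from 259.6 to 310.6 CPM, *Anxa11* from 214.1 to 228.9 CPM and *Anxa3* from 14.4 to 20.3 CPM. In all, 0 of 6 members tested were called in either direction in edgeR, and 0 in DESeq2, where 1.52% of all genes rose and 1.61% fell. At an unadjusted p under 0.05, which 20.7% of all genes reached, *Anxa5*, *Anxa6* and *Anxa11* were lower.

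The treated *Bin1* mouse 2 had the highest *Anxa1*, *Anxa2* and *Anxa5* of its group. It also had the highest sums of osteoblast and osteocyte markers, 308.3 CPM against 19.5 to 25.2 CPM, and of osteoclast markers, 142.4 CPM against 2.85 to 11.2 CPM. Its tendon (435.2 CPM), cartilage (41.6 CPM) and fibro-adipogenic progenitor (699.1 CPM) sums were the highest too, and its muscle fiber sum, 126300 CPM, was the lowest. Without this mouse, *Anxa1* (-1.0, adjusted p = 0.025) and *Anxa5* (-0.88, adjusted p = 0.0484) passed the test. The part of these cell types in these values was not tested. Compared with untreated WT, 0 of 6 members tested were higher in *Bin1* disease treated mice (0.465% of all genes were). *Anxa7* came nearest with 0.75 (SE 0.19, adjusted p = 0.0866), and the unadjusted p was under 0.05 for *Anxa1* and *Anxa7*, as for 14.9% of all genes. DESeq2 called both, and 544 genes in all.

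The tamoxifen effect was also compared between cohorts, as the difference of 2 differences taken within each cohort. Between *Dnm2* and *Bin1* disease, 0 of 6 members tested differed in edgeR (1.71% of all genes did). *Anxa5* came nearest with 1.29 (SE 0.35, adjusted p = 0.0526), was the 1 member with an unadjusted p under 0.05 (24% of all genes), and was among the 1328 genes called by DESeq2. Between WT and *Bin1* disease, a comparison chosen after the values were seen, *Anxa1* differed by 2.43 (SE 0.44, adjusted p = 0.00207) and *Anxa5* by 1.94 (SE 0.35, adjusted p = 0.00199). The change with tamoxifen was thus more positive in WT than in *Bin1* disease for 2 of the 6 members tested, where 22.1% of all genes differed in either direction. Both calls held in all 28 fits without 1 mouse. *Anxa2*, *Anxa4* and *Anxa8* had differences of 2.11 (SE 0.44), 1.71 (SE 0.34) and 4.13 (SE 1.07), given as a description. The library protocol differed between these cohorts and cannot be told apart from the genotype. In the comparison of WT and *Bin1* disease, 7 of 9 muscle fiber markers were called with a negative difference. The part of fiber content in the annexin differences was not tested.

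The S100 proteins that bind annexins were the first of 3 groups of partners. *S100a10*, the partner of annexin A2, was at 24.9 ± 2.26 CPM in WT and 70.4 ± 25.9 CPM in *Dnm2* disease (1.49, adjusted p = 9.2e-04), and at 18.4 ± 2.35 and 47.2 ± 14.6 CPM in WT and *Bin1* disease (1.36, adjusted p = 0.0279). *S100a4*, a calcium sensor of motile cells, was at 1.29 ± 0.142 and 23.7 ± 12.9 CPM in the *Dnm2* cohort (4.14, adjusted p = 3.11e-05) and at 1.91 ± 0.70 and 9.94 ± 7.62 CPM in the *Bin1* cohort (2.35, adjusted p = 0.0391). *S100a6* rose by 1.54 (adjusted p = 3.3e-04) and 0.93 (adjusted p = 0.0323). *S100a11*, a partner of annexin A1, did not pass the test in disease, with log2 fold changes of 0.58 and 0.63 (adjusted p = 0.128 and 0.173).

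Thus 3 of 4 S100 genes rose in each disease comparison, where 12.1% of all genes rose in *Dnm2* and 1.99% in *Bin1* disease. All 4 rose with tamoxifen in WT (15.8% of all genes), by 0.84 for *S100a10* (adjusted p = 0.0198), 2.22 for *S100a4* (0.00156), 0.91 for *S100a6* (0.00767) and 1.08 for *S100a11* (0.00767). With tamoxifen in disease, their adjusted p ranged from 0.0795 to 0.656 in the *Dnm2* cohort and from 0.253 to 0.547 in the *Bin1* cohort, with a median log2 fold change of -0.42 in each. *S100a4* passed the test of the interaction between tamoxifen and genotype (-3.33, SE 0.56, adjusted p = 0.0306).

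The second group was the machinery of membrane repair, of which 22 of 23 genes passed the filter on low counts. In *Dnm2* disease 13 of 22 rose and 0 fell (12.1% and 9.81% of all genes), with a median log2 fold change of 0.40. The largest rises were those of *Cav3*, the muscle caveolin (1.01, adjusted p = 6.26e-04), and *Capns1*, the small subunit of the calpains that cleave dysferlin at wounds (0.93, adjusted p = 7.84e-04). *Dysf*, encoding dysferlin, rose from 95.7 ± 7.47 to 147.7 ± 25.5 CPM (0.63, adjusted p = 0.00536). *Trim72*, encoding the vesicle-tethering protein MG53, rose by 0.53 (adjusted p = 0.0332), and *Ahnak*, encoding a scaffold bound by S100A10 and annexin A2, by 0.74 (adjusted p = 0.0115). *Ano5*, a scramblase of muscle (-0.37, adjusted p = 0.133), and *Myof*, encoding myoferlin (-0.31, adjusted p = 0.566), did not pass the test.

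In *Bin1* disease 6 of 22 repair genes rose and 0 fell (1.99% and 0.627% of all genes), with a median of 0.19. They included *Cavin4*, a caveolar coat protein of muscle (0.72, adjusted p = 0.0332), *Trim72* (0.70, adjusted p = 0.0246) and *Cav3* (0.63, adjusted p = 0.0427). *Dysf* (0.30, adjusted p = 0.275) and *Ahnak* (0.52, adjusted p = 0.114) were not called. With tamoxifen in WT 1 of 22 rose and 2 fell, where 15.8% and 11.9% of all genes did: *Myof* rose by 1.69 (adjusted p = 0.00328), while *Ano5* (-0.54, adjusted p = 0.032) and *Smpd1*, encoding acid sphingomyelinase (-0.31, adjusted p = 0.0354), fell. With tamoxifen in *Dnm2* disease (5.22% of all genes rose and 3.05% fell) *Myof* rose by 1.28 (adjusted p = 0.0396), and *Cavin4* (-0.71, adjusted p = 0.0185), *Cav3* (-0.63, adjusted p = 0.0272) and *Capn1* (-0.52, adjusted p = 0.0137) fell. With tamoxifen in *Bin1* disease *Trim72* fell by 0.59 on the log2 scale (adjusted p = 0.0368), and 0 of 22 rose (1.61% of all genes fell and 1.52% rose).

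**Figure D5:**
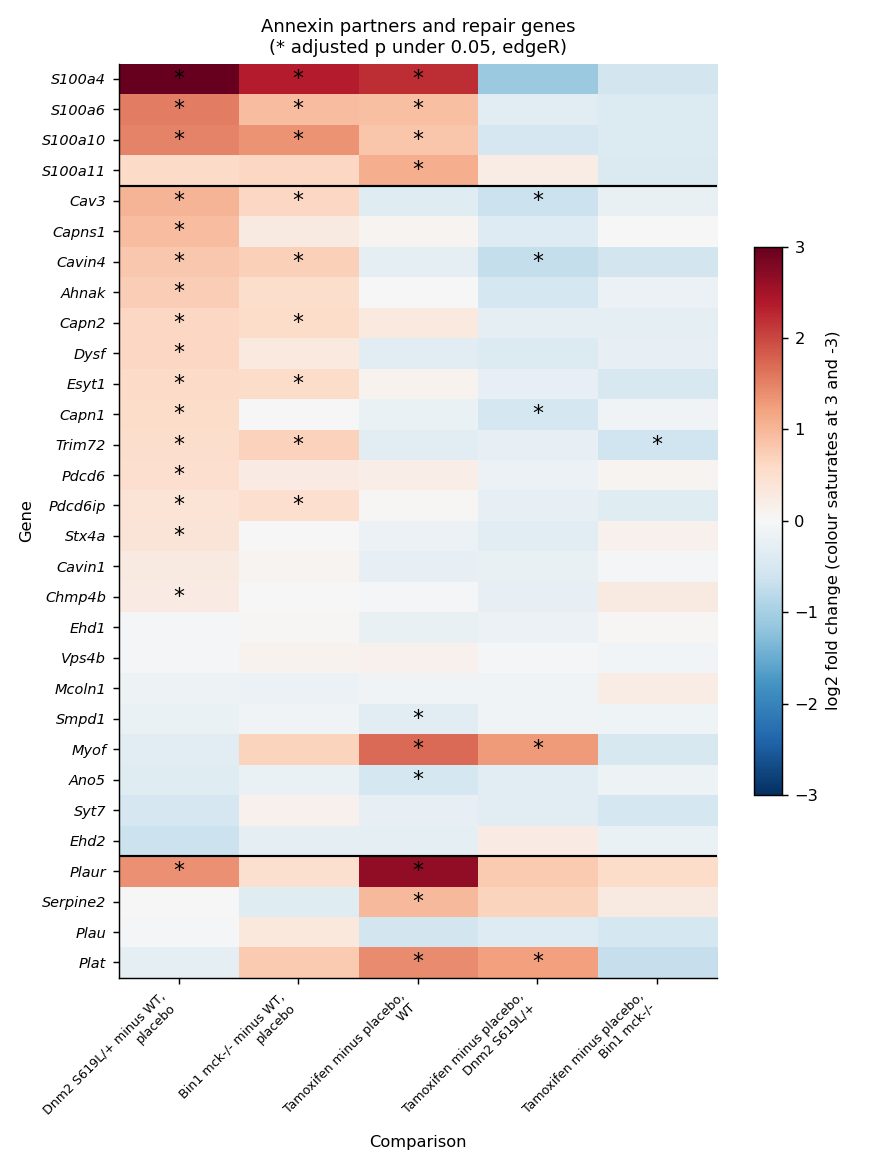
Log2 fold changes of the annexin-binding S100 genes, membrane repair genes and plasminogen system genes in the disease and tamoxifen comparisons. *S100a4* reaches 4.14 in *Dnm2* disease, and *Myof* lies at 1.69 with tamoxifen in WT.

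The third group was the plasminogen system, in which the annexin A2 tetramer serves as a cell surface receptor of plasminogen and its activator. *Plaur*, the urokinase receptor, was at 1.07 ± 0.345 CPM in WT and rose to 2.86 ± 1.17 CPM in *Dnm2* disease (1.37, adjusted p = 0.0193) and to 7.04 ± 2.07 CPM in WT treated mice (2.65, adjusted p = 3.74e-04). *Plat*, encoding tissue plasminogen activator, rose with tamoxifen in WT (1.41, adjusted p = 0.00562) and in *Dnm2* disease (1.24, adjusted p = 0.0338). *Plau*, encoding urokinase, had a log2 fold change of -0.05 in *Dnm2* disease, which did not pass the test. Of 4 genes tested, 1 rose in *Dnm2* disease, 0 in *Bin1* disease, 3 with tamoxifen in WT, 1 in *Dnm2* disease with tamoxifen and 0 in *Bin1* disease with tamoxifen, and none fell in these 5 comparisons, against the shares of all genes given above. *Fpr1* and *Fpr2*, the receptors of annexin A1, were at no more than 0.153 and 0.871 CPM in any mouse and did not pass the filter.

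The other annexin genes were near or at 0. *Anxa9* ranged from 0.0950 to 0.797 CPM, *Anxa13* reached 0.24 CPM and had 0 reads in 15 mice, and *Anxa10* had 0 reads in all 28 mice.

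Finally, the genes whose levels ran most like those of the chosen members were listed over the 28 mice. Likeness was the root mean square difference of log2 CPM, each gene relative to the mean of the untreated WT mice of its cohort, among 10874 genes. For *Anxa2* the nearest genes were *Slc25a24* (0.294), *Anxa1* (0.339), *Pcdh7* (0.347), *Anxa4* (0.363) and *Akr1b8* (0.383). For *Anxa4* they were *Anxa2* (0.363), *Faap20* (0.42), *Nab2* (0.424), *Slc25a24* (0.426) and *Spsb2* (0.446). *Anxa2* was thus among the nearest genes of *Anxa4*, and *Anxa1* and *Anxa4* among those of *Anxa2*. The smallest distance listed between members was 0.136, between *Anxa11* and *Anxa6*, both of which varied little over the mice (0.282 and 0.205 from the untreated WT mean). For *Anxa8* the nearest genes were *Mt3* at 1.58, *Rrad* at 2.04 and *Lgals3* at 2.10. These larger distances go with larger changes of *Anxa8* itself. It stood 4.35 from the untreated WT mean, against 1.29 for *Anxa2* and 1.38 for *Anxa4*. These distances describe 28 mice that share groups, cohorts and cell composition.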

How the data were processed

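RNA-seq was performed by the authors on polyadenylated RNA of TA muscle with a strand-specific kit. The authors deposited raw counts, as whole numbers for each Ensembl gene, in 1 table per cohort. The submitters' processing notes name bcl2fastq 2.20.0.422, cutadapt 1.10, Bowtie 1.2.2, STAR 2.5.3, HTSeq 0.6.1p1 and the mm39 build, with no role or order. Whether counting used the strand is not given in the sources used here. *Anxa2*, *Anxa4* and *Anxa11* share 98, 75 and 113 exon bases with a gene on the opposite strand, and *Anxa3* shares 112 with one on its own strand. In the *Bin1* table, 4 lines that name no gene held 22.0% to 30.8% of counts and were left out. GENCODE named 52083 of the 55359 and 55416 identifiers.

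The members and all gene lists were chosen with earlier results of these data known. Comparisons reusing mice whose values entered the choice of *Anxa2*, *Anxa4* or *Anxa8* were left untested for that gene, some of them only after its test had been seen. All 9 members passed the filter on low counts in both cohorts. Each cohort was fitted whole with edgeR 4.0.16 in R 4.3.3 (TMM, default filter, robust quasi-likelihood test, prior count of 2 for log2 fold changes), and all 28 mice together for differences between cohorts. Benjamini-Hochberg adjustment ran over all genes tested, with a threshold of 0.05. Named were all members, the S100 genes, preset genes of the repair and plasminogen lists and the called repair genes with the largest changes. One preset gene of the plasminogen list is not reported here and was left out of its counts. Alternatives were DESeq2 1.42.0, RLE normalization, no filter, only the groups compared, the replicate block and leaving out each mouse. The test was run first on simulated counts. Nothing says whether the mice of a group came from separate litters. No pair of mice in a group agreed within counting error (chi-square per gene of at least 15.6), and counting intervals cover counting error only. Numbers of genes tested and depth are given with the results.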

Additional observations from a re-analysis of the deposited data

Results flagged for a closer look

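In 4 of 63 combinations of an annexin and a group, 1 mouse stood apart from the other 3, its gap to the nearest of them exceeding Dixon's 95% critical value for 4 samples as a share of the whole range. Chance gives this in about 1 in 20 groups. *Anxa1* was at 6.75 CPM in WT mouse 6 of the *Bin1* cohort, below the others. *Anxa3* was at 22.6 CPM in *Dnm2* disease mouse 3 and *Anxa5* at 93.9 CPM in *Bin1* disease mouse 4, each above the others. *Anxa6* was at 228.7 CPM in WT mouse 4 of the *Dnm2* cohort, below the others. The response to tamoxifen differed between WT and *Bin1* disease mice for *Anxa1*, by 2.43 on the log2 scale, and for *Anxa5*, by 1.94, in a test of the difference itself. That comparison was chosen after the values were seen. It crosses cohorts whose library protocols differ, which cannot be told apart from the genotype.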

How the results depend on the processing

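The calls of *Anxa1* and *Anxa7* in *Dnm2* disease and of *Anxa1* and *Anxa5* with tamoxifen in WT held under the 5 other settings and in all 16 fits without 1 mouse. Over all log2 fold changes of the members compared between settings, 2327 were counted as unchanged. For values tested, this means the same direction and the same side of the threshold. For untested values of *Anxa2*, *Anxa4* and *Anxa8*, it means a move smaller than the standard error, whatever the sign. Of the values tested, 50 were no longer past the threshold, 30 were newly past it and 30 changed sign. Of the untested values, 11 moved by at least their standard error. The cause was not tested for any of them.

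The number of annexins called was 4 in *Dnm2* disease, 2 in a fit of just the groups compared and 2 with the replicate block, without *Anxa3* and *Anxa6*. It was 2 in *Bin1* disease, 5 in DESeq2 and 5 with only the groups compared, which added *Anxa5*, *Anxa6* and *Anxa11*. With tamoxifen in *Dnm2* disease it was 1, and 0 with RLE normalization, with only the groups compared and with the replicate block. DESeq2 called 2 in treated *Bin1* against WT, 1 in *Dnm2* against WT on tamoxifen, 1 in the interaction and 1 between the tamoxifen effects of *Dnm2* and *Bin1*, where the count was 0. Fitting only the groups compared gave 1 in treated *Bin1* against WT and 1 in *Dnm2* against WT on tamoxifen.

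Counts of all genes moved more. In *Bin1* disease they were 388, 1191 in DESeq2 and 1458 with only the groups compared. With tamoxifen in *Dnm2* disease they were 1277, 814 without a filter, 30 with only the groups compared and 843 with the replicate block. With tamoxifen in *Bin1* disease they were 464, 1223 in DESeq2, 122 with only the groups compared and 152 with the replicate block. Treated *Bin1* against WT gave 126, 544 in DESeq2 and 210 without a filter. DESeq2 called 937 genes in *Dnm2* against WT on tamoxifen, where edgeR called 417. The interaction gave 40, 327 in DESeq2, 20 with RLE normalization and 10 with the replicate block. The difference of disease effects gave 50, 223 in DESeq2 and 86 with only the groups compared. The tamoxifen effect of *Dnm2* minus that of *Bin1* gave 274, 1328 in DESeq2, 63 without a filter, 2 with only the groups compared and 0 with the replicate block. The tamoxifen effect of WT minus that of *Bin1* gave 3543, 2286 without a filter and 1869 with the replicate block.

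Leaving out 1 mouse at a time gave 2 to 5 annexins and 2034 to 3953 genes in *Dnm2* disease (3382 with all mice), 0 to 3 and 18 to 759 in *Bin1* disease, 2 to 2 and 2769 to 4825 with tamoxifen in WT (4273), 0 to 2 and 368 to 2562 with tamoxifen in *Dnm2*, and 0 to 2 and 160 to 1253 with tamoxifen in *Bin1*. It gave 3 to 3 and 2955 to 5497 for treated *Dnm2* against WT (4461), 0 to 1 and 42 to 266 for treated *Bin1* against WT, 0 to 1 and 182 to 623 for *Dnm2* against WT on tamoxifen, 0 to 1 and 1 to 293 for the interaction, 0 to 0 and 13 to 154 for the difference of disease effects, 0 to 1 and 6 to 2195 for the tamoxifen effect of *Dnm2* minus *Bin1*, and 2 to 2 and 2010 to 4664 for that of WT minus *Bin1*. The *Anxa3* call in *Dnm2* disease was lost without WT mouse 2 or 4 or disease mouse 1, 2 or 4 (-0.31 without WT mouse 4), and the *Anxa6* call without WT mouse 1, 2, 3 or 4, disease mouse 2 or 4, WT treated mouse 3 or disease treated mouse 1. The *Anxa1* and *Anxa7* calls in *Bin1* disease were lost without any 1 WT mouse, disease mouse 1, 2 or 4 or disease treated mouse 1. With 3 mice left in a group, fewer samples alone raise p-values.

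Among values tested, changes of sign occurred for small values when 1 mouse was left out: *Anxa1* spanned -0.188 to 0.127 in the difference of disease effects and -0.159 to 0.216 with tamoxifen in *Dnm2*, *Anxa11* -0.098 to 0.042 in the interaction, -0.022 to 0.212 in the tamoxifen effect of *Dnm2* minus *Bin1* and -0.046 to 0.188 in that of WT minus *Bin1*, *Anxa2* -0.086 to 0.201 and *Anxa3* -0.097 to 0.044 in *Dnm2* against WT on tamoxifen, *Anxa3* -0.156 to 0.007 in *Bin1* disease, *Anxa5* -0.119 to 0.279 in treated *Bin1* against WT, and *Anxa7* -0.050 to 0.264 in the tamoxifen effect of WT minus *Bin1*, -0.210 to 0.113 with tamoxifen in *Bin1* and -0.018 to 0.163 with tamoxifen in WT. Untested values also changed sign. *Anxa8* spanned -0.977 to 0.294 in the difference of disease effects. It spanned -0.435 to 1.163 with tamoxifen in *Bin1* and -0.107 to 0.557 in *Dnm2* against WT on tamoxifen. *Anxa2* spanned -0.167 to 0.332 in the difference of disease effects, and *Anxa4* -0.17 to 0.315 in the tamoxifen effect of *Dnm2* minus *Bin1*.

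The replicate numbers did not pair the mice. Deviations of same-numbered mice from their group means correlated between -0.325 and 0.335 (median 0.026, 24 pairs) in the *Dnm2* cohort and between -0.175 and 0.149 (4 pairs) in the *Bin1* cohort. No paired analysis was possible because WT and *Bin1* mice share no replicate number, for *Bin1* disease, treated *Bin1* against WT and the difference of disease effects.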
